A study of Mus musculus with 12 samples.

Results

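A set of 10 liver genes of the interleukin 6 (IL6) receptor family, its signalling chain and other inflammatory cytokine receptors were followed by gene name: Il6ra, Il6st, Osmr, Lifr, Jak1, Stat3, Socs3, Il4ra, Il1r1 and Tnfrsf1a. These are 10 of the 57180 genes in the deposited tables, and all 10 passed the filter on low counts, among 19355 genes tested. Bulk RNA-seq had been made from the livers of 12 mice, with 3 female and 3 male KO mice and 3 female and 3 male Het mice. All mice lacked Csa (Ercc8 in the annotation) and had received AAV9-CSA, a vector carrying human CSA cDNA under the CBA promoter, into the brain ventricles as newborns. KO livers came from mice at the humane endpoint with severe disease, and Het livers from treated littermates of the same age, so genotype and disease stage cannot be told apart. The methods write KO as Csa-/-;Xpa+/+ and Het as Csa-/-;Xpa+/-, whereas the study's account of its CX mice gives them as Csa-/- Xpa-/-. The groups are therefore named KO and Het, as labelled.

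The label check came from Xpa, which read 3.13 to 6.32 CPM (counts per 1000000 after library scaling) in Het livers and 0.99 to 1.82 CPM in KO livers, with no overlap (log2 fold change -1.84, SE 0.167, adjusted p = 5.74e-05 from edgeR after Benjamini-Hochberg correction). Ercc8 read 5.12 to 8.76 CPM in Het and 14.7 to 34.3 CPM in KO livers (log2 fold change 1.61, SE 0.175, adjusted p = 1.89e-04); whether reads of the human cDNA were assigned to it was not tested. Each liver had 30044781 to 43634046 counts.

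IL6 family cytokines share the signalling chain gp130, encoded by Il6st, which pairs with a chain that gives the ligand its specificity, such as IL6RA, OSMR or LIFR. JAK1 bound to these chains phosphorylates STAT3, which in hepatocytes turns on acute phase genes and also Socs3, the inhibitor that binds gp130 and JAK1 and ends the signal. IL4RA, IL1R1 and TNFRSF1A receive interleukins 4 and 13, interleukin 1 and tumour necrosis factor, and of these IL1R1 and TNFRSF1A signal through NF-kB.

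Across both sexes, KO livers had more RNA of 5 of the 10 genes and less of none, at an adjusted p under 0.05. Stat3 and Socs3 rose, and so did all 3 receptors outside the IL6 family, whereas none of Il6ra, Il6st, Osmr, Lifr and Jak1 passed the test. The same call was made for 11.4% of all 19355 genes upward and for 10.3% downward. The median log2 fold change was 0.54 over the 10 genes and 0.01 over all genes tested. In female livers the same 5 genes were called higher and none lower, against 4.93% and 4.9% of all genes. In male livers 3 of them (Stat3, Il4ra and Tnfrsf1a) were called higher and none lower, against 4.01% and 2.9%. At an unadjusted p under 0.05 in edgeR, none of the 10 was lower over both sexes, Jak1 was lower in females and Lifr in males. In bulk tissue a change in the number of cells of a type and a change in RNA per cell cannot be told apart.

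**Figure D1:**
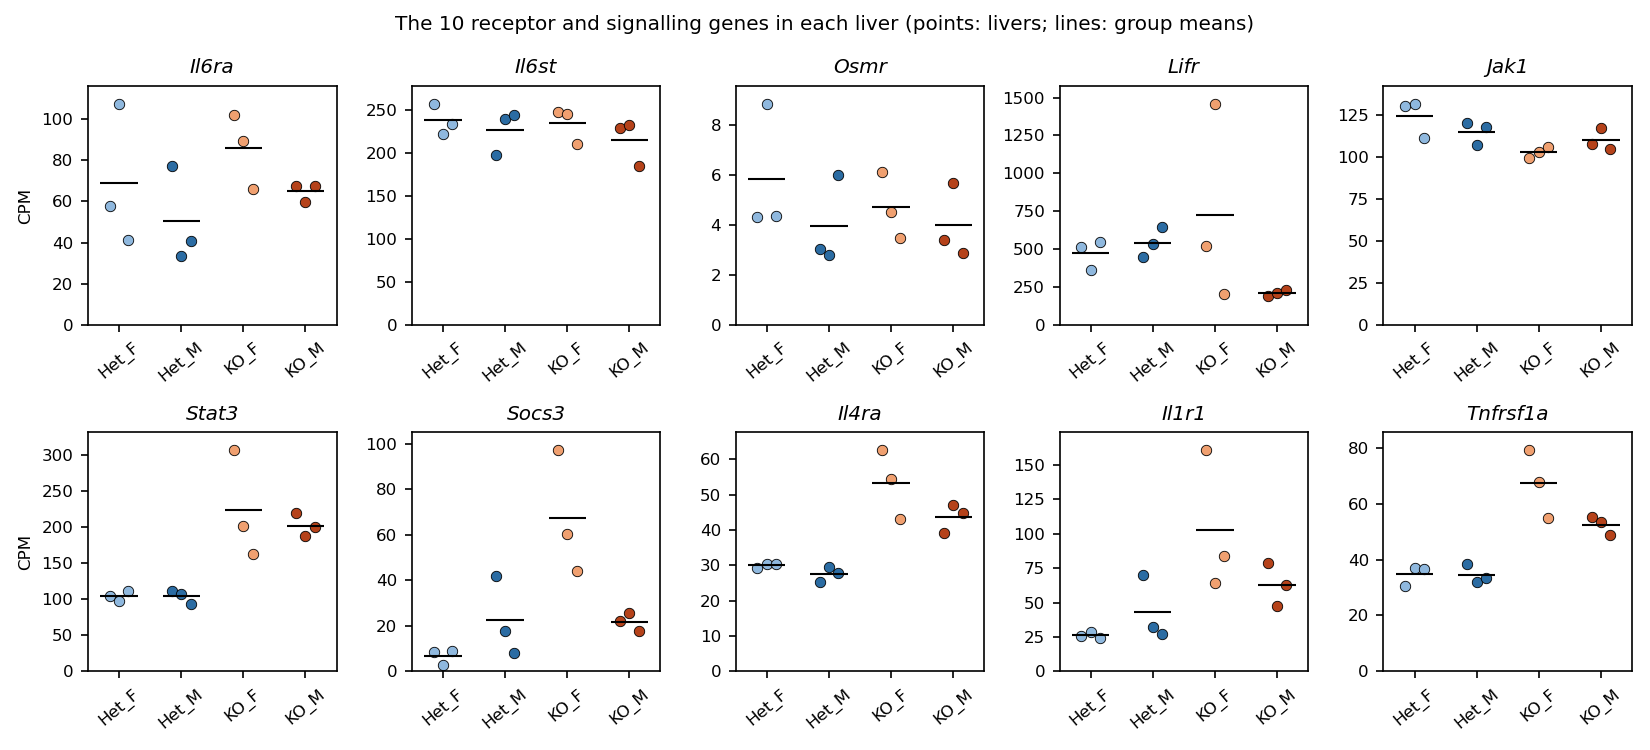
CPM (y axis, from 0, one scale per gene) of the 10 genes in each liver, by genotype and sex; points are livers and lines group means of 3. All 6 KO livers lie above all 6 Het livers for Stat3, Il4ra and Tnfrsf1a. KO livers lie above Het livers in females only for Socs3 and Il1r1. They lie below Het livers for Jak1 in females and for Lifr in males.

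Levels compared per length, as TPM, set the ligand-specific chain Lifr apart from the rest. In Het livers Lifr had 96.5 ± 13.9 TPM (SD, n = 6), and Il6st had 27.0 ± 4.31 TPM. Stat3 at 24.0 ± 3.28 TPM and Jak1 at 19.8 ± 3.00 TPM had means ± SD that overlapped that of Il6st. Tnfrsf1a followed at 13.0 ± 1.52 TPM and Il6ra at 8.92 ± 4.45 TPM, whose spreads overlap. Il6ra also overlapped Il4ra and Il1r1. Il4ra (5.87 ± 0.818 TPM), Il1r1 (5.14 ± 2.18 TPM) and Socs3 (4.38 ± 3.73 TPM) overlapped each other, and Osmr was lowest at 1.09 ± 0.685 TPM, within the wide spread of Socs3. In KO livers Stat3, at 52.7 ± 15.1 TPM, had a higher mean than Il6st at 26.6 ± 2.95 TPM. Lifr had 96.2 ± 106 TPM there, a mean carried by KO_F_112 at 300.6 TPM, and 55.4 ± 38.4 TPM in the other 5 KO livers. In KO males Stat3 had 54.3, 42.2 and 51.1 TPM and Lifr 31.5, 39.3 and 43.4 TPM, so that Stat3 was above Lifr in each of these 3 livers. The mean TPM of Tnfrsf1a (22.5 ± 5.21) lay above that of Jak1 (17.7 ± 1.24), within its spread. Socs3 (14.3 ± 10.4), Il1r1 (13.1 ± 7.30), Il6ra (11.7 ± 3.17) and Il4ra (9.68 ± 2.02) overlapped each other, and Osmr was lowest at 0.881 ± 0.342 TPM. Short noncoding RNAs (Rn7s1, Rn7s2 and Rn7sk) held 50.04% to 59.9% of the TPM in every liver, so that a TPM value is a share of a total dominated by these 3 genes.

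Il6st (chr13:112600604-112646620 on GRCm39, plus strand), the shared chain gp130, hardly moved. Het females had 257, 222 and 234 CPM, Het males 198, 239 and 244 CPM, KO females 248, 245 and 209.9 CPM and KO males 229, 233 and 185 CPM. The groups overlapped throughout, with a log2 fold change of -0.05 (95% interval -0.27 to 0.17).

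Il6ra (chr3:89771366-89820719, minus strand), which binds IL6 itself, varied widely among the livers of each Het group. Het females had 57.6, 107.6 and 41.3 CPM, Het males 77.2, 33.7 and 40.9 CPM, KO females 102, 89.5 and 66.1 CPM and KO males 67.6, 59.7 and 67.3 CPM. The highest liver of all 12 was a Het liver, and the log2 fold change of 0.34 (95% interval -0.22 to 0.90) had an adjusted p of 0.374. An increase of up to 0.90 on the log2 scale is therefore within the interval.

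Osmr (chr15:6843053-6904450, minus strand), the chain for oncostatin M, was low in every liver, from 2.81 to 8.87 CPM in Het and from 2.90 to 6.12 CPM in KO livers, or 86 to 343 counts. Its log2 fold change was -0.15 (95% interval -0.75 to 0.45, adjusted p = 0.740).

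Lifr (chr15:7120095-7226970, plus strand), which receives leukaemia inhibitory factor and pairs with gp130 for several other family members, had one liver far from the rest. Het females had 511, 364 and 549 CPM, Het males 448, 536 and 645 CPM, KO females 521, 1459.7 and 203 CPM and KO males 189, 211 and 231 CPM. All 3 KO males lay below all 3 Het males, whereas the KO females spanned the whole range, with KO_F_112 the highest and KO_F_123 among the lowest. The log2 fold change was -1.37 in males (SE 0.532, adjusted p = 0.152) and 0.62 in females (SE 0.524, adjusted p = 0.481), and neither passed the test. The difference between the sexes, -1.99 (SE 0.745), had an unadjusted p of 0.0226 and an adjusted p of 0.505 in edgeR's interaction test. Without KO_F_112 Lifr was called lower over both sexes (log2 fold change -0.87, adjusted p = 0.0258) and in males (-1.36, adjusted p = 0.0281), where DESeq2, a fit of the 6 male livers alone and the fit without KO_F_123 also called it.

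Jak1 (chr4:101008838-101122487, minus strand), the kinase of this signal, stayed between 99.4 and 131 CPM in all 12 livers. Het females had 129.9, 131 and 111.04 CPM, Het males 120.2, 107 and 117 CPM, KO females 99.4, 103 and 106 CPM and KO males 107, 117 and 105 CPM. The 3 KO females lay below the 3 Het females, but the log2 fold change of -0.27 there had an adjusted p of 0.140, and over both sexes it was -0.17 (95% interval -0.34 to 0.01, adjusted p = 0.156).

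Stat3 (chr11:100775924-100830450, minus strand), the transcription factor of the pathway, rose in both sexes. Het females had 105, 97.5 and 111.3 CPM, Het males 111.1, 107 and 93.0 CPM, KO females 307, 202 and 162 CPM and KO males 219, 188 and 199.7 CPM. Het livers spanned a narrow range, and the lowest KO liver lay above the highest Het liver. The log2 fold change was 1.097 in females (SE 0.200, adjusted p = 0.00937) and 0.96 in males (SE 0.199, adjusted p = 0.0164). In males the call was lost without Het_M_125, Het_M_137 or KO_M_118, where the highest adjusted p was 0.0638.

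Socs3 (chr11:117856905-117860898, minus strand) had the largest change of the 10 genes in females and none that could be told from 0 in males. Het females had 8.59, 2.59 and 8.92 CPM, and KO females 97.2, 60.4 and 44.1 CPM. Het males had 41.8, 17.8 and 8.25 CPM, and KO males 22.3, 25.6 and 17.6 CPM. In females the lowest KO liver was several times the highest Het liver, whereas in males the 3 KO livers lay inside the range of the Het livers. The log2 fold change was 3.32 in females (95% interval 1.89 to 4.74, adjusted p = 0.0159) and -0.05 in males (95% interval -1.36 to 1.26, adjusted p = 0.971). The difference between the sexes was -3.36 (SE 0.851), with an unadjusted p of 0.00278 but an adjusted p of 0.338 in edgeR's test, so it did not pass; DESeq2 gave an adjusted p of 0.00225 for it. Over both sexes Socs3 was called (1.63, SE 0.425, adjusted p = 0.0233), and the call was lost without KO_F_108 (adjusted p = 0.0541), without Het_M_125 (0.0548), without the filter on low counts (0.0588) and in a model without interaction (0.152). In females the call was lost without KO_F_108, at an adjusted p of 0.0510.

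**Figure D2:**
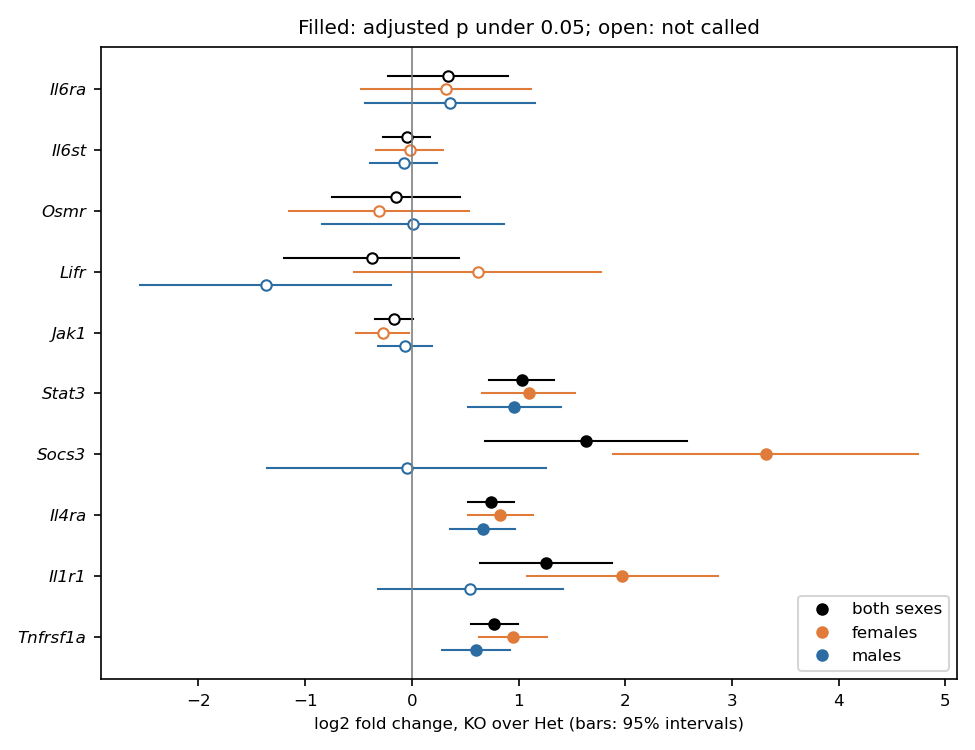
Log2 fold change of KO over Het (x axis) for each gene (y axis), with 95% intervals as bars, over both sexes, in females and in males; filled points passed an adjusted p under 0.05. Intervals for Stat3, Il4ra and Tnfrsf1a lie above 0 in both sexes, and the Socs3 estimate was 3.32 in females and -0.05 in males.

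Il4ra (chr7:125151079-125182844, plus strand), the chain that receives interleukins 4 and 13, varied little among Het livers. Het females had 29.3, 30.3 and 30.3 CPM, Het males 25.2, 29.5 and 27.9 CPM, KO females 62.5, 54.4 and 43.0 CPM and KO males 39.1, 47.0 and 44.8 CPM. Every KO liver lay above every Het liver. The rise was 0.83 in females (SE 0.140, adjusted p = 0.00702) and 0.66 in males (SE 0.140, adjusted p = 0.0174) on the log2 scale, and the male call was lost without Het_M_119, Het_M_137 or KO_M_136, where the highest adjusted p was 0.0691.

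Tnfrsf1a (chr6:125325566-125339632, plus strand), the death domain receptor for tumour necrosis factor, moved in the same way. Het females had 30.7, 37.1 and 36.8 CPM, Het males 38.4, 32.0 and 33.6 CPM, KO females 79.2, 67.8 and 55.0 CPM and KO males 55.1, 53.6 and 49.0 CPM. No KO liver overlapped a Het liver. The log2 fold change was 0.95 in females (SE 0.146, adjusted p = 0.00487) and 0.60 in males (SE 0.145, adjusted p = 0.0306). In males leaving out any 1 of the 6 male livers lost the call, with an adjusted p of up to 0.115.

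Il1r1 (chr1:40264174-40356417, plus strand), the signalling receptor for interleukin 1, was more scattered. Het females had 25.5, 28.5 and 24.6 CPM, Het males 70.2, 32.0 and 27.3 CPM, KO females 161, 63.9 and 83.7 CPM and KO males 78.7, 47.3 and 63.1 CPM. In females every KO liver lay above every Het liver. Het_M_119 reached the level of the KO livers, and KO_F_108 stood above all others. The log2 fold change was 1.26 over both sexes (SE 0.281, adjusted p = 0.0109), 1.97 in females (SE 0.406, adjusted p = 0.0177) and 0.55 in males (SE 0.393, adjusted p = 0.447). The difference between the sexes was -1.42 (SE 0.557, adjusted p = 0.514). Without Het_F_111, Het_F_126 or KO_F_108 the female call was lost, at an adjusted p of up to 0.0560.

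Groups that did not overlap over both sexes were therefore seen for 3 of the 10 genes, Stat3, Il4ra and Tnfrsf1a, all higher in KO, against 4.57% of all tested genes apart in that direction and 4.98% apart in the other. Groups of 3 livers within 1 sex come apart more readily than groups of 6. The share of all genes for such a separation was not counted. KO_F_108 was the highest of the 12 livers for all 5 genes called, and without it 4 genes were called higher over both sexes and 3 in females. None of the 10 genes was called for the genotype by sex interaction (0.0465% of all genes were) or between males and females (0.935% were); at an unadjusted p under 0.05, Socs3, Lifr and Il1r1 passed the interaction test and none passed the sex test.

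The 250 bases before the annotated start of the canonical transcript were searched in the GRCm39 genome for TTCNNNGAA, the core of the element that STAT proteins bind, where N is any base. This motif reads the same on both strands. Of 19241 tested genes with such a window, 6.81% held it, and of the 10 genes 2 did, Socs3 and Tnfrsf1a. The Socs3 match lay 223 to 215 bases before the start and the Tnfrsf1a match 231 to 223 bases before it. Both are shown with the 10 bases on either side, because they are in genes that rose in KO females and are the only matches among the 10 windows. Sequences are written 5′ to 3′ on the strand of the gene, with the match in capitals; the Socs3 stretch is chr11:117860328-117860356 and the Tnfrsf1a stretch is chr6:125326432-125326460.
Socs3: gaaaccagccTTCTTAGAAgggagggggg
Tnfrsf1a: gctggcttccTTCCGTGAAattgacaaca
Stat3, Il4ra and Il1r1, the other genes that rose, had no match in this window. Their windows overlap annotated exons in 250, 213 and 48 of 250 bases. Windows at other starts of these genes were not searched. The Socs3 window overlaps annotated exons in 173 of its 250 bases and the Tnfrsf1a window in all 250. Both genes have transcripts with other starts. Exons of any gene on either strand were counted in these overlaps. A match describes these letters only, and binding was not measured.

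Ligand genes were scarce in these livers, and 1 of them rose in KO, against 11.4% of all genes tested. Of 10 IL6 family ligand genes, 5 (Il6, Il11, Osm, Ctf2 and Il27) had too few reads to be tested, with at most 6 counts of any of them in any liver. Il6 had 0 to 6 counts in each liver and 24 in all 12 together, and its mean was 0.0301 TPM in Het and 0.0294 TPM in KO livers. Lif (0.0445 TPM in Het, 0.0665 TPM in KO), Cntf (1.02 and 0.797 TPM), Ctf1 (1.40 and 1.65 TPM) and Ebi3 (0.147 and 0.222 TPM) were tested and not called. Clcf1, cardiotrophin-like cytokine factor 1, which signals through CNTFR, LIFR and gp130, was the 1 ligand that rose. Het livers had 0.432 to 0.882 CPM of it and KO livers 2.32 to 6.75 CPM, without overlap (log2 fold change 2.30, SE 0.269, adjusted p = 3.07e-04), and it was called in females and in males. Among ligands of the other receptors, Il13 had 0 counts in all 12 livers, which allows up to 3 counts in each, Il4 had at most 3 and Lta at most 2 counts. Il1a (1.23 and 1.30 TPM in Het and KO), Il1b (1.14 and 1.35 TPM) and Tnf (0.155 and 0.172 TPM) were tested and not called.

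**Figure D3:**
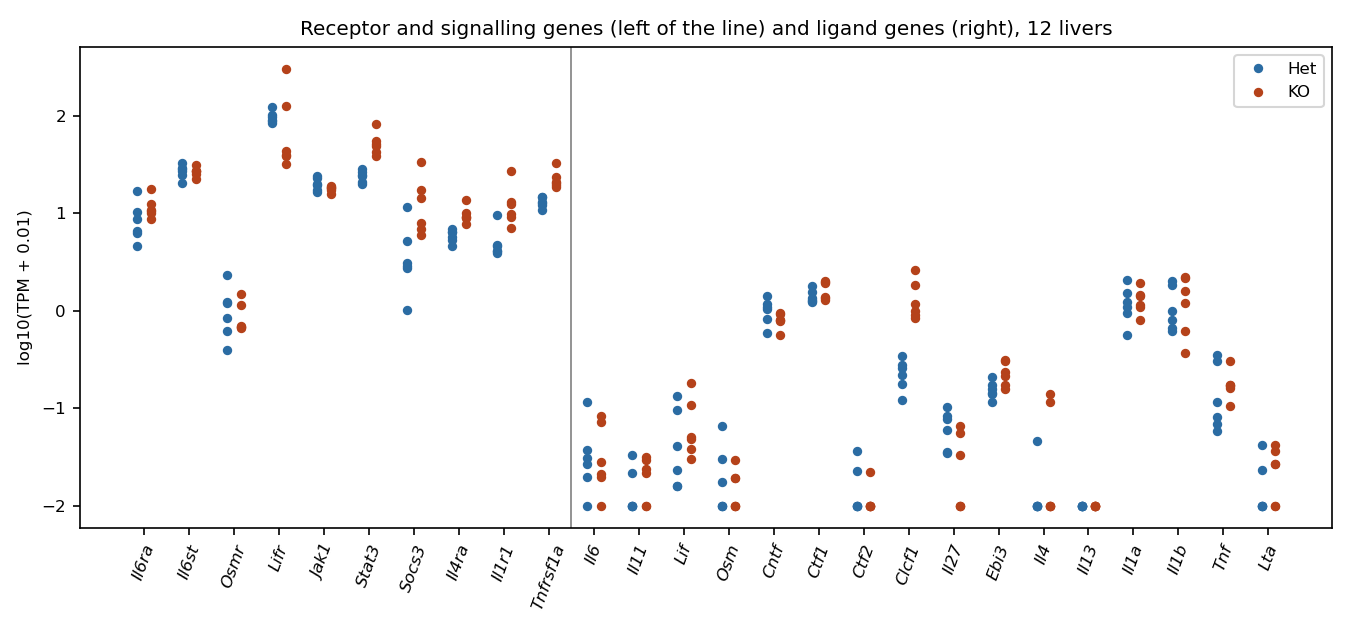
Log10 of TPM + 0.01 (y axis) for the 10 genes and 16 ligand genes (x axis) in each Het and KO liver; points at -2 are livers with 0 TPM. Ligand genes lie mostly below the receptors, and Clcf1 is the ligand gene whose Het and KO livers are apart.

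Chains that work with these receptors moved in both directions. Of the other IL6 family chains, Il27ra (log2 fold change -1.18, adjusted p = 0.00762) and Cntfr (-1.103, adjusted p = 0.0103) fell and Il11ra1 did not pass the test. Cntfr, the binding chain for CLCF1, was low, at 0.673 to 1.097 CPM in Het and 0.201 to 0.687 CPM in KO livers. Among 9 partner, decoy and antagonist chains, 8 were tested, 2 were called higher and 1 lower. Of all genes tested, 11.4% were called higher and 10.3% lower. Il1rap, the accessory chain that IL1R1 needs to signal, fell from 75.7 to 127 CPM in Het livers to 24.0 to 49.9 CPM in KO livers (log2 fold change -1.46, SE 0.115, adjusted p = 1.92e-05), with no overlap. Over both sexes Il1r1 was thus called higher and Il1rap lower. In males Il1r1 was not called (log2 fold change 0.55, adjusted p = 0.447 in edgeR), and its Het and KO livers overlapped there. Il13ra1, which pairs with IL4RA, rose by 0.39 (SE 0.0942, adjusted p = 0.0133). Il1r2, a decoy receptor for interleukin 1, was called higher (1.22, adjusted p = 0.0488) on 0 to 19 counts a liver, and the call did not hold in 5 of 13 other analyses or without 10 of the 12 livers in turn.

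Of 9 other JAK and STAT genes 2 were called higher and none lower. For this and the following lists, the shares of all genes were 11.4% higher and 10.3% lower. Stat5b rose by 0.49 (adjusted p = 0.00525) and Jak3 by 0.47 (adjusted p = 0.0101). Of 15 other SOCS and feedback genes, 2 were called higher, near the share of all genes, and none lower. They were Socs2, an inhibitor best known from growth hormone signalling, at 1.99 (SE 0.443, adjusted p = 0.0122), and Ptpn1, a tyrosine phosphatase, at 0.35 (adjusted p = 0.0112). The Ptpn1 call was lost in limma on log2(TPM + 1) and log2(TPM + 0.1), at adjusted p of 0.0618 and 0.0619. Of 4 genes for the proteases that shed cytokine receptors and their partners, 1 was called, Rhbdf2 (1.09, adjusted p = 0.0157), a cofactor of the protease ADAM17; its highest liver was KO_F_108 at 53.2 CPM.

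Many genes that STAT3 and the acute phase response turn on in liver rose. Of 35 listed genes 34 were tested, and 18 were called higher and 2 lower over both sexes. Of all genes, 11.4% were called higher and 10.3% lower. The median log2 fold change was 0.82 over the list, against 0.01 over all genes. In females 11 were called higher and 2 lower, and in males 10 and 1. The shares of all genes were 4.93% and 4.9% in females, and 4.01% and 2.9% in males. Lcn2, a siderophore-binding protein, had 0.952 to 21.1 CPM in Het livers and 91.8 to 192 CPM in KO livers (log2 fold change 4.66, SE 0.482, adjusted p = 3.31e-04). Orm2, an acid glycoprotein of plasma, had 6.69 to 28.0 CPM in Het and 90.3 to 177 CPM in KO livers (3.46, SE 0.297, adjusted p = 6.71e-05); it shares sequence with Orm1 and Orm3, and how reads were split among them was not tested. Itih3, a plasma protein that binds hyaluronan, had 665 to 1100.2 CPM in Het and 1713 to 3349.9 CPM in KO livers (1.495, SE 0.161, adjusted p = 1.73e-04). All 3 were called in both sexes and did not overlap. The 2 that fell, named after their values were seen, were Saa4 (-1.19, adjusted p = 0.00153), the constitutive serum amyloid A, and Bcl3 (-1.05, adjusted p = 0.0208). Some of the other listed genes did not pass the test: Saa1 at 0.75 (adjusted p = 0.172), Crp at -0.30 (0.126) and Hamp at -0.45 (0.146), also picked after their values were seen.

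**Figure D4:**
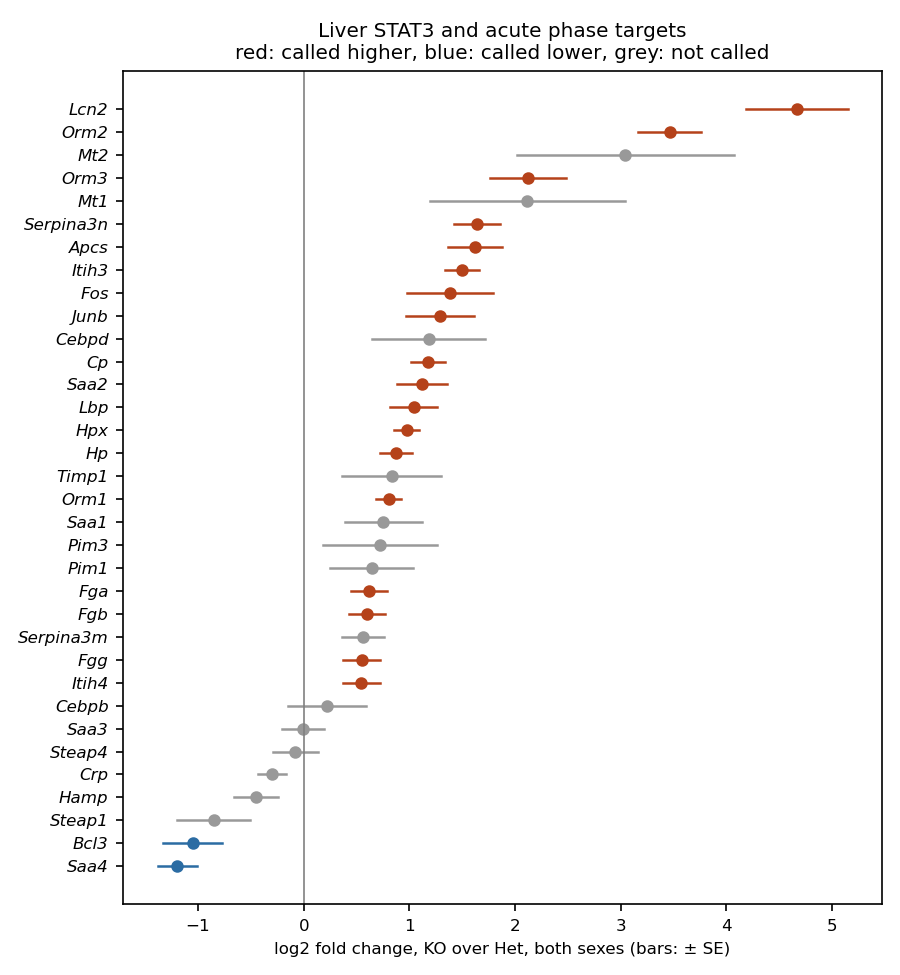
Log2 fold change of KO over Het over both sexes (x axis) with SE as bars for 34 tested liver STAT3 and acute phase genes (y axis), ordered by size; colours mark the 18 called higher, the 2 called lower and the 14 not called. Lcn2 and Orm2 have the largest values, 4.66 and 3.46.

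Downstream of IL1R1 and TNFRSF1A, 2 of 18 adaptor and kinase genes were called higher and 1 lower, near the 11.4% and 10.3% of all genes, with a median of -0.05. Tab1 (0.95, adjusted p = 0.00401) and Tab2 (0.68, adjusted p = 0.0107), subunits of the TAK1 kinase complex, rose, and Chuk (-0.60, adjusted p = 0.00246), a subunit of the IkB kinase, fell. Of 21 NF-kB target genes 2 were called higher and 2 lower, near the share of all genes, with a median of 0.20. Nfkbiz (0.59, adjusted p = 0.0137) and Ier3 (1.36, adjusted p = 0.0176) rose, and Sod2 (-0.50, adjusted p = 0.00794) fell. The other gene called lower, named after its values were seen, was Cxcl10 (-0.89, adjusted p = 0.0313), at -1.64 in females (adjusted p = 0.0215) and -0.14 in males (0.856).

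Tab1 was also the gene whose course over the 12 livers was closest to that of Stat3. Closeness was the root mean square difference of log2 CPM, after each gene was centred on its own mean, and was 0.122 for Tab1, against a standard deviation of 0.569 for Stat3 itself. The next 4 were Zbtb11os1 (0.137), 4933433G15Rik (0.141), Asrgl1 (0.148) and Fam234b (0.160). The nearest gene was Cntrl for Il6ra (0.142), Taf6 for Il6st (0.102), Lrrc32 for Osmr (0.242), Exoc3 for Jak1 (0.0475), Vat1 for Il4ra (0.109), Prob1 for Il1r1 (0.282) and Kics2 for Tnfrsf1a (0.0936). The closest gene to Lifr, Ccdc157 (0.450), lay farther from it than each of these from its own counterpart. The distance is not scaled to a gene's own standard deviation, which was 0.867 for Lifr and 0.142 for Il6st. It therefore does not rank how well the genes were matched.

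Some markers of other cells also differed between the genotypes. Over both sexes, 11.4% of all genes tested were called higher and 10.3% lower. Hepatocyte markers were abundant in every liver, with a sum of 52961 to 75658 CPM in Het and 69762 to 126933 CPM in KO livers. Alb had the most counts of the 7 in every liver. Of the 7, 1 was called lower, near the share of all genes. Of 10 Kupffer cell and macrophage markers 5 were called higher and none lower, and their sum was 160 to 423 CPM in Het and 221 to 652 CPM in KO livers. By sex, none of these 10 was called in females (median log2 fold change 0.37) and 4 were called higher in males (median 1.11). The shares of all genes called higher were 4.93% in females and 4.01% in males. Of 10 neutrophil and monocyte markers 6 were tested and 2, Itgam and S100a8, were called higher. The sum of the 10 was 1.96 to 7.06 CPM in Het and 6.37 to 10.8 CPM in KO livers. In the same list Ly6g, Camp and Mpo had at most 3 counts in any liver. Whether neutrophils were present was not tested. Of 10 stellate cell and fibroblast markers 4 were called lower (sums of 291 to 526 CPM in Het and 145 to 320 CPM in KO), and of 7 endothelial markers 3 were called lower. In females 5 stellate and 2 endothelial markers were called lower, and in males 2 and 0. Of all genes, 4.9% were called lower in females and 2.9% in males. No T, NK and B cell marker (9 genes) and no cholangiocyte marker (7 genes) was called over both sexes. In females 1 T, NK and B cell marker was called lower (median log2 fold change -1.05 over the 9), and none in males (median 0.21). The sum of the 9 was low, at 2.19 to 4.95 CPM in Het and 1.16 to 4.58 CPM in KO livers. The part of these cells in the levels of Il4ra, Il1r1 and Tnfrsf1a was not tested.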

How the data were processed

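Total RNA of 12 livers had been depleted of ribosomal RNA and sequenced as stranded paired reads, and the authors aligned reads with STAR 2.7.9a to GRCm39 and quantified GENCODE genes with Salmon 1.10.1. The deposited tables hold estimated counts per gene, 2 versions of these estimated counts scaled by length or library size, and TPM; none holds fold changes. The deposited estimated counts (30044781 to 43634046 a liver; 12.0% of values are not whole) were rounded, filtered at 5 or more reads at the median library size in 3 or more livers, scaled by TMM and fitted in edgeR 4.0.16 (R 4.3.3) with a mean for each of the 4 groups, robust quasi-likelihood dispersions and a prior count of 2. Benjamini-Hochberg adjustment was over 19355 genes, and genes were called at an adjusted p under 0.05. CPM are counts per 1000000 of TMM-scaled library size, and the authors' TPM served for levels between genes. Standard errors were computed from the F statistic.

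Labels do not say whether livers were prepared together, so no batch could be examined. Livers of 1 group differed by more than counting noise. Mice of the groups shared no numbers, and each mouse is 1 sample. The 10 genes and all gene lists were chosen with earlier results of these data known. Beside the 10 genes, the text names Xpa, Ercc8, the ligand genes, and up to 3 called genes of smallest p from each list; not every gene this rule covers is reported here. Promoter windows were read from the GRCm39 genome with GENCODE M39 starts, a later release than the authors' M34. Alternatives were other scalings, filters and count tables, unrounded counts, DESeq2 1.42.0, limma 3.58.1 on log2(TPM + 1) and log2(TPM + 0.1), other edgeR settings, a model without interaction, livers of 1 sex alone, and leaving out each mouse. Intervals and count limits cover counting error and the spread between these mice only.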

Additional observations from a re-analysis of the deposited data

Results flagged for a closer look

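Livers far from the rest of their genotype were looked for in the 6 Het and the 6 KO livers for each of the 10 genes, with Dixon's ratio above its 95% critical value. Chance flags about 1 in 20 such sets, and 3 of 20 sets were flagged. KO_F_112 had 1459.7 CPM of Lifr, with the other KO livers at 189 to 521 CPM. KO_F_108 had 161 CPM of Il1r1, with the other KO livers at 47.3 to 83.7 CPM. Het_M_119 had 70.2 CPM of Il1r1, with the other Het livers at 24.6 to 32.0 CPM.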

How the results depend on the processing

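Over both sexes 4 or 5 of the 10 genes were called higher under all 14 other analyses, and in females likewise, and 3 in males. Stat3, Il4ra, Il1r1 and Tnfrsf1a were called over both sexes in each of these and without each mouse. Without each mouse in turn, the count called higher was 4 to 5 over both sexes, 3 to 5 in females (3 without KO_F_108) and 0 to 3 in males (0 without Het_M_137, and 1 without Het_M_119, Het_M_125, KO_M_118 or KO_M_136), and the count called lower was 0 to 1 over both sexes and 0 to 1 in males, the 1 being Lifr. DESeq2 and a fit of the male livers alone also called 1 gene lower in males, Lifr at -1.37 in both (adjusted p = 0.0480 and 0.00319), and DESeq2 called 1 gene, Socs3, for the interaction. With the female livers alone, Stat3 in females had an adjusted p of 0.0657. No alternative called any of the 10 genes between males and females.

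The changes of sign were all among log2 fold changes that were not called. In males, Socs3 was 6.95e-04 with upper quartile scaling, 0.0521 with library sizes only, 0.27 on log2(TPM + 1) and 0.34 on log2(TPM + 0.1), Il6st was 0.0600 and 0.0625 on the same TPM scales, and Jak1 was 0.00527 with library sizes only, 0.0440 on log2(TPM + 1) and 0.0463 on log2(TPM + 0.1). Without each mouse, Il6st ranged from -0.0927 to 0.00332 over both sexes, from -0.0670 to 0.0541 in females and from -0.17 to 0.0258 in males. Osmr ranged from -0.31 to 0.0673 over both sexes, from -0.54 to 0.12 in females and from -0.32 to 0.44 in males. Lifr in females ranged from -0.38 without KO_F_112 to 1.06 without KO_F_123, and Socs3 in males from -0.45 without Het_M_137 to 0.74 without Het_M_119. The cause of these differences was not tested. No paired analysis was possible because the groups share no mouse numbers. Depth limits the 5 untested IL6 family ligand genes, at no more than 6 counts in any liver.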
